A study of Mus musculus with 16 samples.

Results

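Gonadal white adipose tissue (gWAT) of mice with and without Mboat7 in adipocytes was compared after 20 weeks of high-fat diet (HFD). The comparison takes the 4 ASKO and the 4 control mice on HFD, 8 of the 16 male C57Bl6/J mice of the series, and they were chosen by diet and genotype labels alone. Control mice carry the floxed Mboat7 allele without Cre (Flox), and ASKO mice carry it together with an adiponectin-driven Cre recombinase (Flox Adiponectin Cre), so the deletion concerns adipocytes and leaves Mboat7 in macrophages, vessels and stroma. All 8 ate the Research Diets HFD, were fasted for a few hours, and were perfused with saline before the fat was frozen. Each mouse gave 1 RNA sequencing library of whole gWAT. In such bulk RNA, fewer cells of a type and less RNA per cell cannot be told apart.

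MBOAT7 is a membrane-bound acyltransferase that joins arachidonic acid to lysophosphatidylinositol (LPI) and so makes the main arachidonate-containing species of phosphatidylinositol (PI), the parent lipid of the phosphoinositides. Phosphoinositides mark the membranes of endosomes and lysosomes, carry insulin and growth factor signals and anchor the actin cytoskeleton. Obese gWAT holds large adipocytes together with macrophages, progenitor cells, vessels and lymphocytes, and macrophages there take up lipid and break it down in lysosomes.

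Levels are given as FPKM (fragment counts scaled for transcript length and library size), and differences as ASKO minus control on the log2(FPKM + 1) scale with the standard error of the limma fit. The test took the 5838 genes that reached 5 FPKM in 4 or more of the 8 mice. Of these, 13 reached it only in ASKO mice and 8 only in control mice, so they entered the test through the group where they were high and had to differ. Of the genes named below, Gm11273, Gm21399, Pcyt2 and Lair1 are among the 13, and Phb, Snrnp25 and Kctd17 among the 8. The steps of the low values put the depth behind the table at an estimated 298000 to 407000 fragments in control mice and 348000 to 402000 in ASKO mice, so the precision of low values is limited. The 10 highest genes took 36.9% to 55.2% of the FPKM sum of a mouse. Common genes are listed at 0 in some mice, and 1102 tested genes are at 0 in at least 1 mouse. Where values of such a gene are given, they are those of each mouse in place of a mean. The control mouse numbered 0 stood apart: its median correlation with the other 7 mice was 0.725, against 0.765 to 0.781 for these, and 44 genes were at 0 in it alone with at least 5 FPKM in all the others.

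Mboat7 itself (chr7:3677789-3693523 in GRCm38, minus strand, with exons overlapping Tsen34) was too low for the test. It was listed at 0, 0, 2.15 and 1.61 FPKM in control mice 0 to 3 and at 1.14, 0, 2.60 and 0 FPKM in ASKO mice 0 to 3. The difference was -0.02 on the log2(FPKM + 1) scale (two-sided exact permutation test, p = 1.0). At this depth a loss of the transcript was not detectable on HFD, and the labels alone identify the knockout mice. The tissue label was checked against adipocyte genes, which were high in all 8 mice. Adiponectin (Adipoq) was at 539, 367, 432 and 414 FPKM in control mice and at 462, 318, 395 and 415 FPKM in ASKO mice. Fabp4, the fatty acid carrier of adipocytes, was at 3303 to 8347 FPKM in control and 5052 to 5709 FPKM in ASKO mice. The epididymis lies next to this depot, and the 1 gene of its marker list in the table reached at most 0.7 FPKM.

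Few single genes separated the genotypes on HFD. With limma and Benjamini-Hochberg adjustment, 1 of 5838 tested genes (0.0171%) passed an adjusted p of 0.05 with a log2 difference above 0.5. At an unadjusted p under 0.05, 160 genes were higher (2.74%) and 197 lower (3.37%) in ASKO mice. The 4 ASKO values lay above all 4 control values in 128 genes (2.19%) and below them in 143 genes (2.45%). Over all tested genes, 51.7% were higher, with a median difference of 0.03. On simulated data for the same 5838 genes with the spread of these mice, a true log2 difference of 1 was called in 0% of genes and one of 2 in 45%.

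The gene that passed was Gm11273 (chr13:21501029-21501418), annotated as protein coding. It was listed at 0 in all 4 control mice and at 87.4, 71.4, 14 and 26.8 FPKM in ASKO mice (adjusted p = 0.0385, limma), so no fold is given. With all control mice at 0 it entered the test only through the ASKO mice, and the single call of the comparison rests on such a gene. Its transcript of 390 bases is 99.2% identical to that of Cox5b, a subunit of cytochrome c oxidase. Reads of such a pair could be split between them. Cox5b was at 92.3, 4.67, 27.6 and 78.0 FPKM in control and 42.2, 46.3, 18.2 and 43.8 FPKM in ASKO mice, with groups that overlap. Of the 8 fits that each left out a mouse, Gm11273 passed in 1, the fit without ASKO mouse 2 (adjusted p = 0.0281, limma), and in the others its adjusted p was 0.0672 to 0.554.

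Genes of lysosomes were mostly higher in ASKO mice. The vacuolar ATPase (V-ATPase) pumps protons into lysosomes, and cathepsins are the proteases that work at the resulting low pH. Of 35 tested genes of lysosomal proteins and V-ATPase subunits, 25 were higher and 10 lower in ASKO mice, with a median difference of 0.33. Without control mouse 2 the median was 0.17, and without any other single mouse 0.25 to 0.36. In 7 of the 35 (20.0%) all ASKO values lay above all control values, against 2.19% of all tested genes, and in none below. The list was chosen with earlier results of these data known, so this share is a description only. The list means overlapped: control mouse 0, at 5.92 on the log2(FPKM + 1) scale, lay above ASKO mice 2 (5.77) and 3 (5.91). None passed the adjusted test, with adjusted p (limma) from 0.802 upward, and 4 had an unadjusted p under 0.05 in the higher direction and none in the lower.

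The promoters of 25 of these 35 genes were found in RefSeq (28 promoters, GRCm38.p6, from 250 bases before to 50 after the start). They were searched for the palindrome TCACGTGA and for its core CACGTG, which is part of it. The longer element is of the kind read by the transcription factors TFEB and MITF in lysosomal genes. TCACGTGA was present in 5 of the 28 promoters (17.9%) and in 0.974% of 32851 promoters of all genes, and CACGTG in 10 of them (35.7%) and in 7.15% of all. These counts cover the members whatever their direction here. Of the 3 promoters shown to compare members that hold the motif, those of Ctsd and Atp6v1a belong to genes whose ASKO values all lay above control, and that of Atp6v0d1 to a gene with a difference of -0.51. The remaining promoters with TCACGTGA, not shown, belong to Atp6v0e (0.34) and Ctsa (-0.47), both with groups that overlap. The promoters of Atp6v1d and Ctss, whose ASKO values also all lay above control, hold no CACGTG, so the motif was in 2 of the 4 separated genes with a promoter in RefSeq. Capitals mark TCACGTGA, each sequence runs 5' to 3' on the strand of the gene, and Ctsd has a further CACGTG left in lower case near its 5' end.
Ctsd (chr7:142387778-142388077, minus strand): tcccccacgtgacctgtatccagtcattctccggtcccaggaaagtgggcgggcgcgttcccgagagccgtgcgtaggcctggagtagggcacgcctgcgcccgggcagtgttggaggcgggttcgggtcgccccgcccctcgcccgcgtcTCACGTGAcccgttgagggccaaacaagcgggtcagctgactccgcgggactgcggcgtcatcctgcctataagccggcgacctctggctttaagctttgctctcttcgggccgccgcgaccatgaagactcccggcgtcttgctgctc
Atp6v1a (chr16:44139210-44139509, minus strand): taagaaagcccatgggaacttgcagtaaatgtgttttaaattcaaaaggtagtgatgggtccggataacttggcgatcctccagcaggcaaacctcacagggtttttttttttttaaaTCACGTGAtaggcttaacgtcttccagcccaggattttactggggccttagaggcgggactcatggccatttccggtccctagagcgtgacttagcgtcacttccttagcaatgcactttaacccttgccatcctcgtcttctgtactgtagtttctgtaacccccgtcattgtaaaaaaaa
Atp6v0d1 (chr8:105566015-105566314, minus strand): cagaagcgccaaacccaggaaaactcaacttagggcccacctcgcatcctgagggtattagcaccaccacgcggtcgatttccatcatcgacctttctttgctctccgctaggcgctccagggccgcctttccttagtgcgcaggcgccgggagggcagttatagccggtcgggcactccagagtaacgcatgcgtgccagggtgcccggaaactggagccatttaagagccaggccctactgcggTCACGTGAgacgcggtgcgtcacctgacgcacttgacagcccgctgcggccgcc

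Among the proteases, cathepsin D (Ctsd) was at 494, 487, 330 and 508 FPKM in control mice and at 763, 837, 574 and 884 FPKM in ASKO mice. Its groups did not overlap, and the difference was 0.75 ± 0.22 (adjusted p = 0.802, limma). Cathepsin B (Ctsb), whose exons overlap another gene, was at 222 to 278 FPKM in control and 285 to 399 FPKM in ASKO mice, and cathepsin S (Ctss), a protease of antigen-presenting cells, at 256 to 299 and 328 to 477 FPKM. Ctsa (protective protein), whose exons overlap Pltp and Neurl2, had the lowest moderated statistic of the list, with 1159 to 2453 FPKM in control and 970 to 1236 FPKM in ASKO mice (-0.47 ± 0.25).

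Within the V-ATPase, 3 subunits of the cytosolic ATP-driven part were separated. Atp6v1a, its catalytic subunit, was at 12.9, 17.8, 22.6 and 21.6 FPKM in control and 34.8, 33.7, 30.5 and 26.0 FPKM in ASKO mice (0.73 ± 0.28). Atp6v1d was at 8.6, 8.4, 11.5 and 8.04 FPKM against 11.6, 24.5, 21.9 and 15.6 FPKM (0.90 ± 0.33), with groups that met at 11.5 and 11.6 FPKM. Atp6v1g1 was at 24.8, 25.9, 26.0 and 19.1 FPKM against 31.8, 51.5, 31.5 and 61.6 FPKM (0.80 ± 0.30). In the membrane part, the subunit Atp6v0d2, known from osteoclasts and macrophages, was at 67.5 to 82.4 FPKM in control and 96.0 to 114 FPKM in ASKO mice (0.43 ± 0.21). Its relative Atp6v0d1, which is made in most cells, was at 13.3, 5.17, 8.99 and 11.2 FPKM against 4.0, 4.17, 11.2 and 7.23 FPKM. The members other than those of the lowest and highest statistics were named after their values were seen, as were the other genes given below because their groups did not overlap. Among the 21 tested genes of the list whose exons overlap no other gene, 15 were higher (median 0.36). Over all 2848 tested genes without such overlap, 58.9% were higher and the median was 0.11.

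**Figure D1:**
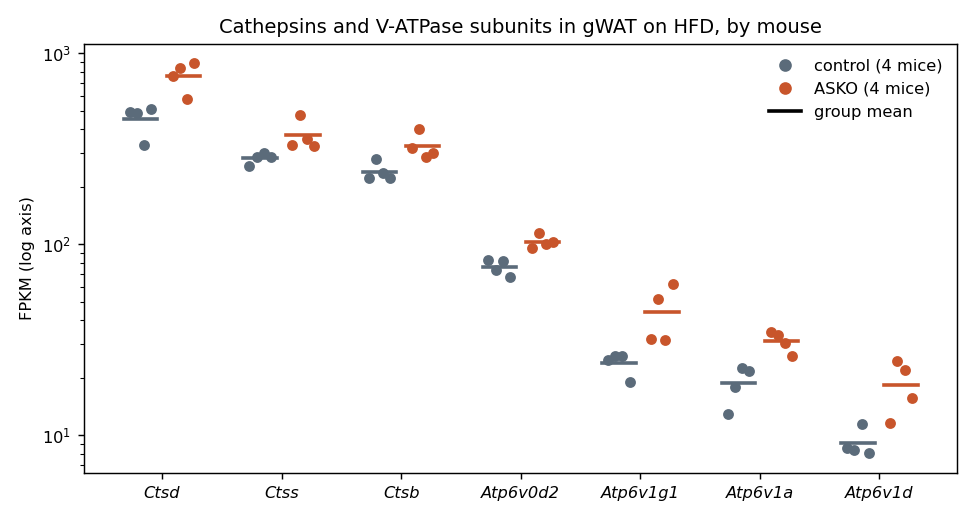
FPKM (log axis) of the 7 lysosomal genes whose groups did not overlap on HFD. Each point is 1 mouse, control in grey and ASKO in orange, and each bar is the mean of 4 mice. In every gene the lowest ASKO point sits above the highest control point, at 574 against 508 FPKM in Ctsd. The gap is narrow in Atp6v1d (11.6 against 11.5 FPKM).

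Macrophage markers were examined beside the lysosomal genes, and none passed the adjusted test. Of 11 tested macrophage markers, 10 were higher in ASKO mice (median 0.40), and C1qb, a chain of complement C1q, was at 53.7 to 81.1 FPKM in control and 84.2 to 127 FPKM in ASKO mice without overlap (0.65 ± 0.24, adjusted p = 0.803, limma). Cd68, a lysosomal membrane protein of macrophages, was at 23.8, 58.7, 30.2 and 36.0 FPKM against 78.6, 63.3, 52.9 and 98.7 FPKM. Csf1r, the receptor for macrophage colony-stimulating factor, was the member on the other side, at 43.2 to 87.2 FPKM in control and 29.2 to 43.9 FPKM in ASKO mice. The mean of the 11 markers was 4.92, 6.04, 5.38 and 5.61 in control and 5.94, 5.90, 5.74 and 5.83 in ASKO mice on the log2(FPKM + 1) scale, so control mouse 1 lay above every ASKO mouse. The sum of the 14 listed markers ran from 698.9 to 1130.8 FPKM in control and from 870.0 to 1306.1 FPKM in ASKO mice, and none of the 14 was at 0 in all mice of a group. The part of macrophage number in the lysosomal difference was not tested.

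Genes of mitochondrial energy metabolism were mostly higher in ASKO mice, with large spread within groups. Of 67 tested nuclear-encoded subunits of the respiratory chain, 48 were higher and 19 lower (median 0.25). An unadjusted p under 0.05 was found for 4 in the higher direction (5.97%, against 2.74% of all tested genes) and for none in the lower. Without control mouse 0 the median was 0.38, without ASKO mouse 1 it was 0.15 and without ASKO mouse 2 it was 0.41. The groups of 1 subunit did not overlap (1.49%), a share below the 2.19% of all tested genes. This was Uqcrc2, a core protein of complex III whose exons overlap another gene, at 27.1, 14.2, 25.8 and 24.1 FPKM in control and 54.2, 43.9, 43.8 and 45.5 FPKM in ASKO mice. The difference of 1.04 ± 0.28 had an adjusted p of 0.802 (limma). Ndufs7 of complex I was listed at 6.40, 0, 0 and 0 FPKM in control and 17.0, 6.75, 4.56 and 8.45 FPKM in ASKO mice. Ndufs8 of the same complex went the other way, at 14.7, 10.5, 4.25 and 17.4 FPKM against 0, 4.10, 10 and 8.88 FPKM. Ndufc1, a small subunit of complex I, was listed at 4.81, 32.7, 0 and 0 FPKM against 55.1, 137, 24.4 and 4.89 FPKM, so its spread within groups was wide. Of the 43 subunits whose exons overlap no other gene, 32 were higher (median 0.37), beside 58.9% of all 2848 such genes (median 0.11). The mean of the 67 subunits ran from 4.03 to 5.11 in control and from 4.55 to 5.21 in ASKO mice on the log2(FPKM + 1) scale, and the groups overlapped.

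The citrate cycle feeds that chain, and its list also held pyruvate enzymes and carriers. Of 18 tested genes of the list, 16 were higher (median 0.28, 0.18 without ASKO mouse 1 and 0.44 without control mouse 2). None of them was separated. Mpc2, a subunit of the mitochondrial pyruvate carrier, was listed at 16, 0, 8.61 and 9.85 FPKM in control and 49.6, 12.4, 14.5 and 22.3 FPKM in ASKO mice. Mitochondrial ribosomal proteins were divided, with 24 of 43 higher and a median of 0.15 that was -0.06 without control mouse 1 and without control mouse 2. Phb (prohibitin), a scaffold protein of the inner mitochondrial membrane, was among the 15 genes with the largest negative differences, at 7.52, 20.3, 6.39 and 11.9 FPKM in control and 2.86, 1.72, 2.60 and 3.64 FPKM in ASKO mice (-1.66 ± 0.48, adjusted p = 0.802, limma), and it entered the test only through the control mice. Branched-chain amino acid catabolism, which ends in the citrate cycle, had 8 of 13 genes higher (median 0.13, and -0.07 without control mouse 1), led by Auh at 9.58, 3.21, 14.8 and 6.49 FPKM against 20.8, 12.6, 27.4 and 19.5 FPKM.

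**Figure D2:**
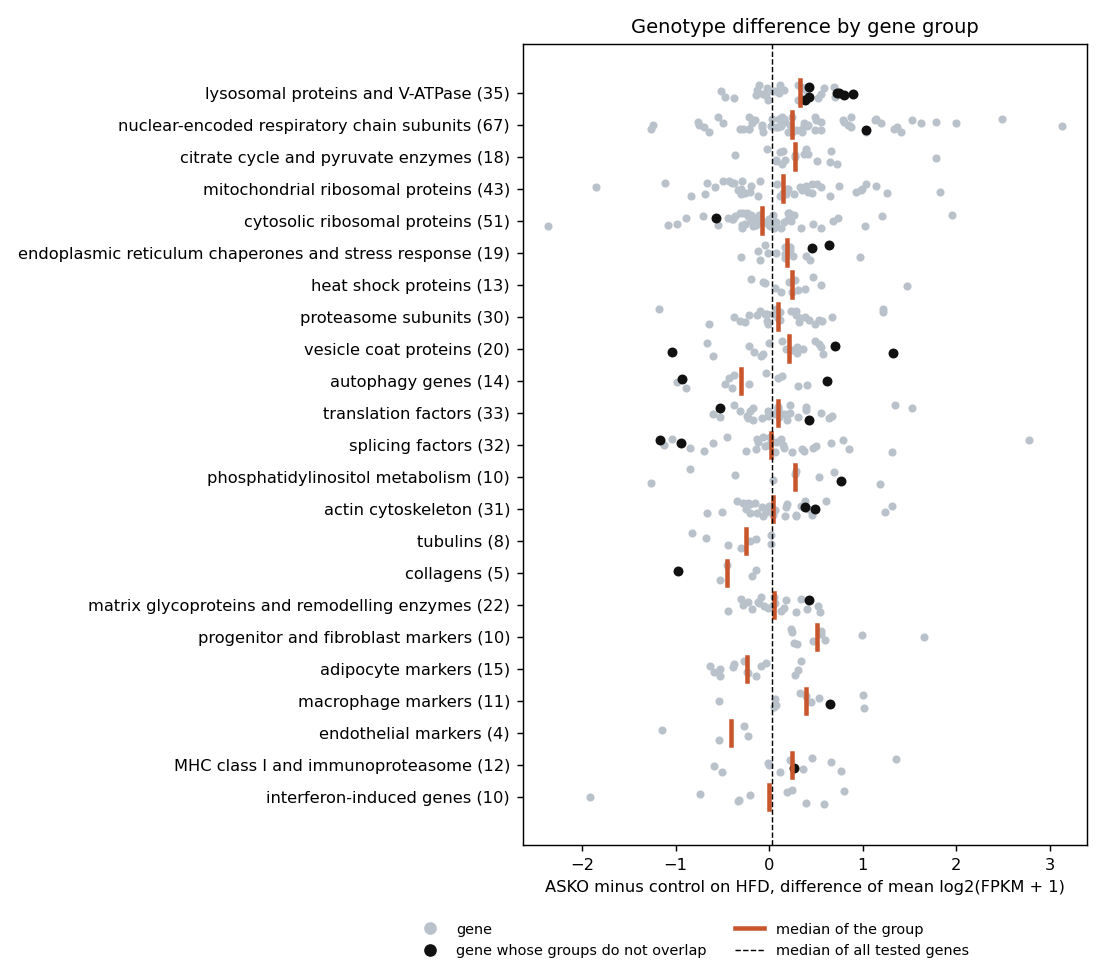
Difference between ASKO and control mice on HFD for each tested gene of 23 lists, with the number of tested genes in parentheses. Grey points are genes, black points are genes whose groups did not overlap, orange bars are list medians and the dashed line is the median of all tested genes (0.03). Black points lie to the right for lysosomal genes (7 of 35), and list medians run from -0.45 (collagens) to 0.51 (progenitor and fibroblast markers).

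In the secretory pathway, 2 of 19 chaperone genes and 2 of 20 vesicle coat genes were separated upward, against 2.19% of all tested genes. Of the 20 coat genes, 1 was separated downward, against 2.45% of all tested genes. None of these genes passed the adjusted test. Endoplasmic reticulum chaperones help new membrane and secreted proteins to fold, and 14 of 19 tested genes were higher (median 0.19, and 0.05 without ASKO mouse 1). Hspa5 (BiP), the main chaperone, was at 107, 132, 133 and 128 FPKM in control and 160, 219, 159 and 157 FPKM in ASKO mice, and its groups did not overlap (0.46 ± 0.21). Pdia4, a disulfide isomerase, was at 13.5 to 24.0 FPKM in control and 25.7 to 28.6 FPKM in ASKO mice (0.64 ± 0.27), also without overlap. Ddit3 (CHOP), which rises under severe folding stress, was at 22.5 to 51.7 FPKM against 29.8 to 37.1 FPKM. Sar1b, the GTPase that starts COPII coat assembly, was at 6.96, 5.58, 3.33 and 2.85 FPKM in control and 21.3, 13.4, 8.79 and 10.1 FPKM in ASKO mice (1.33 ± 0.42, adjusted p = 0.802, limma). Ap1s1, of the clathrin adaptor between Golgi and endosomes, was at 11.9 to 22.2 FPKM against 25 to 33.2 FPKM. In all, 13 of 20 coat genes were higher (median 0.21, 0.08 without ASKO mouse 1 and 0.11 without control mouse 0), and Copg2 was separated in the lower direction and is described with the overlapping genes. Of 13 heat shock proteins of the cytosol and mitochondria, 10 were higher (median 0.24, and 0.12 without control mouse 3) and none was separated.

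Autophagy, which delivers cell parts to lysosomes, did not share the direction of the lysosomal list: 5 of 14 genes were higher and 9 lower (median -0.30, -0.12 without ASKO mouse 0 and -0.17 without control mouse 1). Becn1, of the lipid kinase complex that starts autophagosomes, was at 4.93 to 9.71 FPKM in control and 10.9 to 12.3 FPKM in ASKO mice without overlap between groups, and its exons overlap another gene. Atg4d, a protease of autophagosome formation, was at 234, 112, 76.8 and 118 FPKM in control and 66.9, 70.4, 65.5 and 57.4 FPKM in ASKO mice (-0.93 ± 0.33), and its exons overlap another gene. Map1lc3a, an LC3 gene, was at 68.1, 41.9, 17.0 and 45.0 FPKM against 19.5, 21.1, 13.8 and 23.3 FPKM. Proteasome subunits, the other route of protein breakdown, had 18 of 30 higher (median 0.10) and no separated gene.

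Genes of PI metabolism, the pathway of the deleted enzyme, were low in this tissue: 10 of 30 were tested, 7 higher and 3 lower (median 0.28). Pip4k2a, a phosphoinositide kinase, was at 9.06, 15.6, 10.5 and 11 FPKM in control and 16.5, 16.6, 27.6 and 20.9 FPKM in ASKO mice (0.77 ± 0.31, adjusted p = 0.803, limma). Its groups did not overlap. Pitpnm1, a PI transfer protein, was at 15.9, 11.2, 6.18 and 11.5 FPKM against 5.30, 4.75, 1.10 and 6.36 FPKM (-1.26 ± 0.51). Without control mouse 0 the median of the 10 genes was 0.00. Pcyt2, the regulated enzyme of phosphatidylethanolamine synthesis, stood among the 15 genes with the largest positive differences, at 1.78, 2.86, 4.23 and 0 FPKM in control and 9.87, 17.2, 12.1 and 8.55 FPKM in ASKO mice. Of the lipid synthesis genes, 7 of 9 were higher (median 0.71, and 0.42 without control mouse 3), led by Agpat2, which makes phosphatidic acid and whose exons overlap another gene, at 14.2 to 29.1 FPKM in control and 35.4 to 74.5 FPKM in ASKO mice (1.27 ± 0.34). Pck1, which makes the glycerol backbone of new fat in adipocytes, was at 26.9 to 46.2 FPKM against 49.0 to 76.9 FPKM, and the desaturase Scd1 at 631 to 1789 FPKM against 1580 to 2815 FPKM.

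Insulin signalling and glucose uptake genes were not resolved, with 6 of 24 tested and 3 higher. Of the clock genes, 4 of 19 were tested, and Nr1d1 (REV-ERB alpha), a clock repressor whose exons overlap another gene, was at 14.5, 27.5, 19.4 and 37.3 FPKM in control and 10.7, 13.7, 13.9 and 14.3 FPKM in ASKO mice (-0.78 ± 0.34). Among beta-adrenergic and cAMP signalling genes, 3 of 9 were higher (median -0.08, and 0.08 after rescaling each mouse to its FPKM sum without the 10 highest genes). Among immediate early and stress genes, 7 of 11 were higher (median 0.24, and -0.06 without control mouse 0), with the stress-induced factor Atf3 at 5.21, 5.62, 8.35 and 13.5 FPKM against 21.4, 18.9, 11.2 and 14.2 FPKM.

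Protein synthesis genes were split. Of 51 cytosolic ribosomal proteins, 23 were higher and 28 lower (median -0.08, and 0.09 after the same rescaling). Rpl5, which binds a ribosomal RNA before both join the large subunit, was at 119, 104, 120 and 108 FPKM in control and 77.1, 67.9, 86.8 and 71.9 FPKM in ASKO mice (-0.57 ± 0.21, adjusted p = 0.803, limma), and its exons overlap another gene. Of 33 translation factors, 20 were higher (median 0.10): the RNA helicase Eif4a2 was separated upward, at 63.4 to 81.2 FPKM against 86.1 to 117 FPKM, and Eif5b downward, at 30.6 to 41.9 FPKM against 19.9 to 29.7 FPKM. Each is 3.03% of the list, near the 2.19% upward and 2.45% downward of all tested genes. Of 32 splicing factors, 17 were higher (median 0.02), and Hnrnpf and Prpf31 were separated downward (6.25%, against 2.45% of all tested genes). Snrpe was listed at 35.2, 0, 9.03 and 0 FPKM in control and 15.3, 34.8, 31.1 and 42.6 FPKM in ASKO mice.

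The stromal genes went both ways. All 10 tested progenitor and fibroblast markers were higher in ASKO mice (median 0.51), although no single one was separated. The small leucine-rich proteoglycan lumican (Lum) was at 94.5, 128, 187 and 131 FPKM in control and 215, 209, 162 and 189 FPKM in ASKO mice (0.55 ± 0.25). The surface marker Ly6a was listed at 14.3, 17.7, 0 and 8.96 FPKM against 16.7, 14.3, 49.6 and 19.7 FPKM. The mean of the 10 genes was 3.97, 4.77, 4.52 and 4.58 in control and 5.02, 5.32, 4.91 and 4.95 in ASKO mice on the log2(FPKM + 1) scale. These means did not overlap, control mouse 0 was the lowest, and the median difference without that mouse was 0.25. Collagens, which fibroblasts secrete, did not go with them: all 5 tested of 17 were lower (median -0.45). Col6a2, a chain of the microfibrillar collagen VI, was at 22, 23.1, 16.3 and 17.2 FPKM in control and 8.16, 16.2, 11 and 5.40 FPKM in ASKO mice (-0.97 ± 0.36, adjusted p = 0.803, limma), with groups that did not overlap but met at 16.2 and 16.3 FPKM. Col3a1 was at 122, 40.7, 33.2 and 26.6 FPKM against 37.5, 47.4, 47.7 and 35.1 FPKM, with control mouse 0 far above the rest, and the collagen median without that mouse was -0.08. Of 22 other matrix and remodelling genes, 12 were higher (median 0.05), and the inhibitor Timp2 was separated, at 33.4 to 51.9 FPKM against 53.5 to 65.5 FPKM. It was 4.55% of that list, against 2.19% of all tested genes separated upward.

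Adipocyte markers were lower in 12 of 15 (median -0.24) with none separated. Leptin (Lep), the satiety hormone, was at 891, 505, 609 and 458 FPKM in control and 497, 539, 312 and 360 FPKM in ASKO mice (-0.52 ± 0.27). Pparg, the nuclear receptor that maintains adipocytes, was at 27.9 to 34.8 FPKM against 12.6 to 29.2 FPKM (-0.59 ± 0.33), while the lipid droplet protein Plin1 was at 37.2 to 58.9 FPKM against 41.4 to 87.2 FPKM (0.31 ± 0.29). Control mouse 0 had the highest adipocyte mean of the 8, 6.94 on the log2(FPKM + 1) scale against 6.15 to 6.48 in the other controls, and without it the median was -0.03. All 4 tested endothelial markers were lower (median -0.41, -0.17 without ASKO mouse 0 and -0.65 without control mouse 2), with Gpihbp1, the capillary anchor of lipoprotein lipase, listed at 33.6, 28.7, 13.6 and 13.6 FPKM in control and 0, 21.8, 20 and 18.7 FPKM in ASKO mice.

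**Figure D3:**
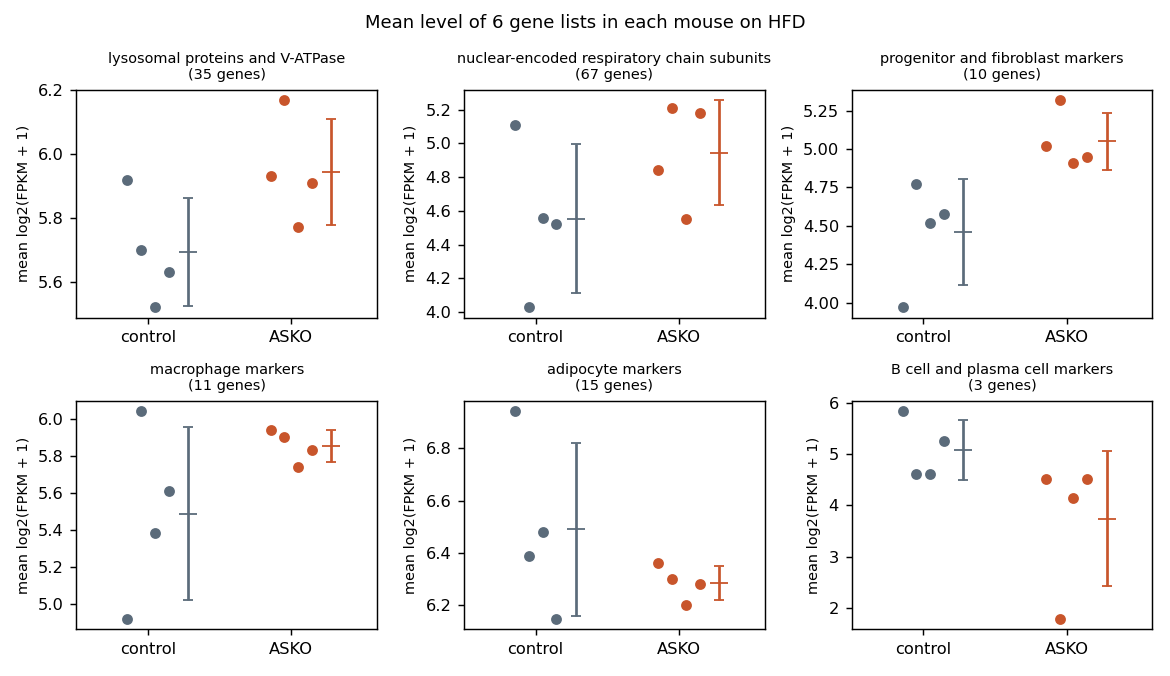
Mean log2(FPKM + 1) over the tested genes of 6 lists in each mouse on HFD (points), with the mean and SD of 4 mice beside them. Groups do not overlap for progenitor and fibroblast markers (3.97 to 4.77 in control and 4.91 to 5.32 in ASKO mice) and for the 3 B cell and plasma cell genes (4.61 to 5.83 and 1.80 to 4.52), and they overlap in the other 4 lists.

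Lymphocyte genes were sparse. Only 3 of 12 B cell and plasma cell genes were tested, and all were immunoglobulin or joining chain genes. The heavy chain Ighm was at 87.9, 34.8, 35.1 and 73.9 FPKM in control and 33.6, 8.98, 32.0 and 29.5 FPKM in ASKO mice (-1.16 ± 0.49, adjusted p = 0.803, limma), without overlap. The light chain Igkc was listed at 107, 30, 44.8 and 67.0 FPKM against 34.0, 0, 12.9 and 57.8 FPKM, and Jchain was at 7.92 to 18.2 FPKM against 3.24 to 11.3 FPKM. The sum of the 11 markers in the table ran from 81.8 to 218.9 FPKM in control and from 13.2 to 95.7 FPKM in ASKO mice, and 3 of them were at 0 in all control mice and 4 in all ASKO mice. No marker of NK cells, neutrophils or mesothelium passed the filter.

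Antigen presentation genes were counted by class. Of 12 class I and immunoproteasome genes 9 were higher (median 0.24), and the class I heavy chain H2-D1 was at 126 to 156 FPKM in control and 159 to 198 FPKM in ASKO mice without overlap. Of 6 class II genes, 2 were higher (median -0.07, 0.10 after rescaling, and -0.26 to 0.17 with a mouse left out). Interferon-induced genes were even, 5 higher and 5 lower. Among 11 cytokines and chemokines 6 were higher, and osteopontin (Spp1), a secreted phosphoprotein of lipid-laden macrophages, did not overlap between groups, at 7.42, 5.18, 4.48 and 7.87 FPKM in control and 23.4, 18.6, 21.4 and 17.4 FPKM in ASKO mice (1.57 ± 0.31, adjusted p = 0.437, limma). Of the complement and coagulation genes 9 of 15 were higher, with the plasminogen activator Plau at 5.70 to 19.8 FPKM against 20 to 34.2 FPKM. Actin cytoskeleton genes were even (16 of 31 higher), although Tpm4 and Actr3 were separated upward (6.45%, against 2.19% of all tested genes). Of 8 tubulin genes, 6 were lower (median -0.25, -0.16 without ASKO mouse 2 and -0.39 without control mouse 2), with Tuba4a at 39.1 to 65.3 FPKM against 27.4 to 39.3 FPKM.

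The 15 genes with the largest positive differences among those without overlap were mostly low in control mice, 14 of them with at least 1 control mouse at 0. Fam107b was listed at 6.27, 0, 5.55 and 4.80 FPKM in control and 56.1, 31.6, 45.6 and 30.8 FPKM in ASKO mice (3.32 ± 0.62, adjusted p = 0.437, limma). The inhibitory receptor Lair1 of leukocytes was at 1.19, 1.48, 0.932 and 3.47 FPKM in control and 7.07, 14.7, 8.30 and 17.9 FPKM in ASKO mice (2.22 ± 0.52) and entered the test only through the ASKO mice, and the leukocyte surface protein Cd48 was listed at 4.45, 0, 0 and 5.44 FPKM against 15.3, 8.93, 20 and 7.52 FPKM. Lamtor4, of the lysosomal complex that recruits mTORC1, was listed at 0, 6.17, 9.57 and 11.4 FPKM against 31.4, 24.0, 19.6 and 17.9 FPKM. Ppa1, which splits pyrophosphate, was listed at 13.5, 6.09, 0 and 0 FPKM against 16.4, 38.5, 24.4 and 25.4 FPKM. The small GTPase Rhog was listed at 5.42, 3.48, 10.3 and 0 FPKM against 16.5, 11.5, 12.8 and 14 FPKM, and the Mediator subunit Med11 at 0, 5.22, 0 and 5.52 FPKM against 6.77, 16.8, 7.21 and 13.4 FPKM. Beside Gm11273, the pseudogenes Gm6180, Gm21399 and Gm8325 are near copies of Cfl1 (98.8%), Prdx1 (98.3%) and Ube2v1 (99.3%), so their values are uncertain. Gm6180 was listed at 0, 0, 0 and 9.58 FPKM in control and 19, 14.6, 17.2 and 31 FPKM in ASKO mice. Gm21399 was at 0 in all control mice and at 11.7, 9.88, 6.36 and 11.6 FPKM in ASKO mice, and Gm8325 was listed at 7.07, 0, 0 and 0 FPKM against 13.7, 23.7, 17.8 and 8.06 FPKM. Cfl1 was at 159 to 242 FPKM in control and 162 to 320 FPKM in ASKO mice, and Prdx1 at 55.8 to 83.8 and 55.9 to 103 FPKM, both with groups that overlap.

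**Figure D4:**
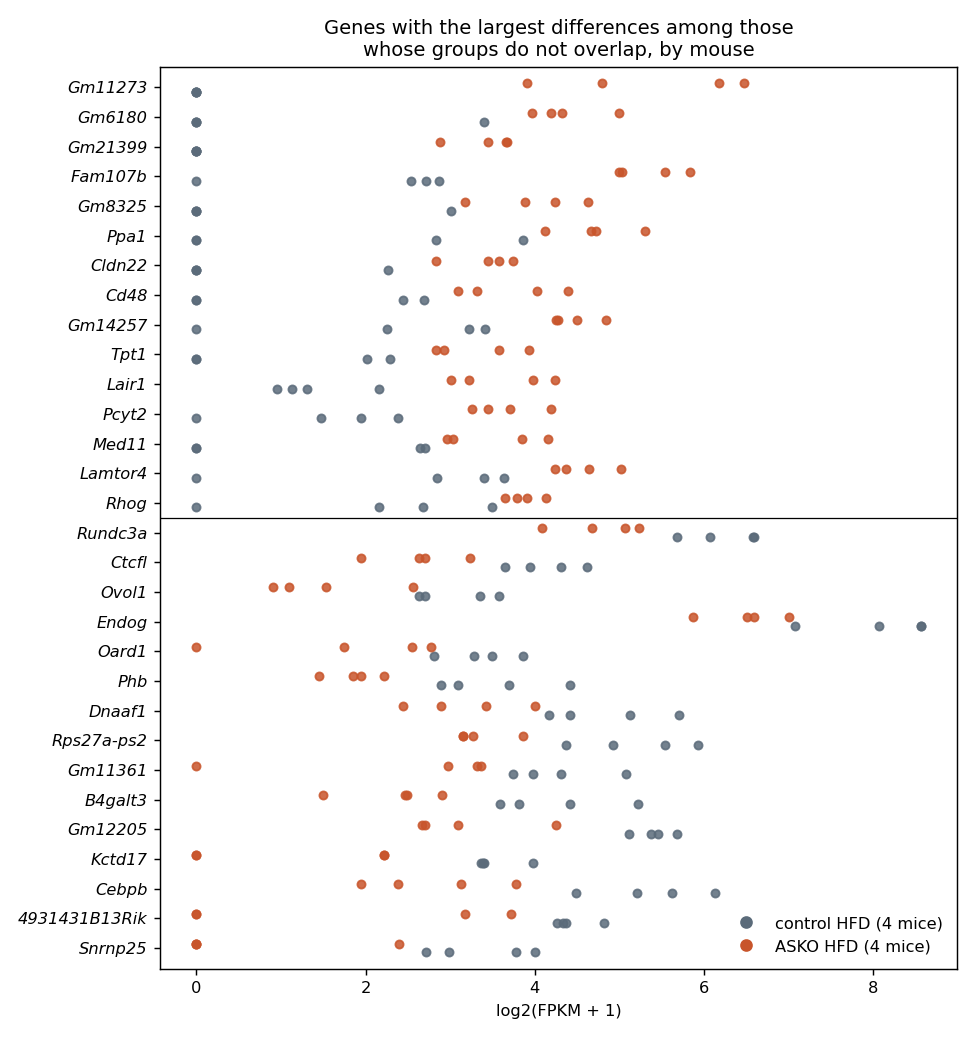
log2(FPKM + 1) of each mouse for the 15 highest (above the line) and 15 lowest differences among tested genes whose groups did not overlap. Control mice are grey and ASKO mice orange, and points at 0 are values listed as 0. Control points at 0 are frequent in the upper part, and ASKO points at 0 occur in 5 genes of the lower part.

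At the other end, Cebpb, a transcription factor of early adipogenesis and of inflammatory genes, was at 69.1, 35.9, 21.4 and 48.4 FPKM in control and 4.2, 12.7, 2.84 and 7.73 FPKM in ASKO mice (-2.55 ± 0.49, adjusted p = 0.437, limma). The lowest control value was above the highest ASKO value, and its exons overlap Tmem189. Its relative Cebpd was at 36.4 to 54.2 FPKM against 27.3 to 43.2 FPKM (-0.28 ± 0.26). Rundc3a was at 94.3, 95.2, 50.3 and 66.4 FPKM against 16, 36.6, 24.5 and 32.6 FPKM (-1.46 ± 0.34). The mitochondrial nuclease Endog, whose exons overlap Spout1, was at 378, 268, 134 and 377 FPKM against 127, 89.6, 57.4 and 95.3 FPKM (-1.58 ± 0.38). Snrnp25, of the minor spliceosome, was listed at 6.89, 15, 12.7 and 5.55 FPKM against 0, 4.24, 0 and 0 FPKM. Kctd17 was listed at 9.28, 9.51, 14.7 and 9.48 FPKM against 3.63, 0, 3.63 and 0 FPKM. B4galt3, Dnaaf1 and Ctcfl were also lower, each with exons that overlap another gene, and the pseudogenes Rps27a-ps2 and Gm11361 match ribosomal protein genes. Gm11361 was listed at 14.7, 12.4, 18.9 and 32.7 FPKM against 6.84, 9.29, 0 and 8.98 FPKM.

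The genes separated downward lay more often on top of other genes than those separated upward, a comparison made without a test. Of the 143 lower genes 120 (83.9%) have exons overlapping those of another gene, and of the 128 higher genes 46 (35.9%), beside 50.9% of all tested genes. Read against their backgrounds, 4.04% of the 2972 overlapped genes were separated downward and 1.55% upward, and 0.808% and 2.88% of the 2848 genes without overlap. The remaining genes could not be placed in the annotation. The median difference was -0.07 for overlapped genes and 0.11 for the others. Among the 5838 tested genes were 512 antisense transcripts, of which 20 were separated downward and 2 upward, beside 143 and 128 of all 5838. Of the 512, 476 have exons overlapping another gene, the class with 4.04% separated downward and 1.55% upward. Summed over all antisense transcripts, separated or not, FPKM was 127263, 138838, 131685 and 141031 in control mice. In ASKO mice it was 110132, 105239, 114001 and 116939, and the groups did not overlap. As a share of the FPKM sum of the mouse, all antisense transcripts made up 17.6%, 14.1%, 19.8% and 17.8% in control mice. In ASKO mice they made up 18.2%, 16.1%, 17.7% and 13.7%, and these shares overlapped. The FPKM sum itself was 790736 ± 137482 in control and 689053 ± 112196 in ASKO mice (SD, n = 4). The antisense values were examined after they were seen. The libraries were directional, but whether strand entered the FPKM values is not given in the sources used here, and without it reads of a gene and its overlapping partner cannot be told apart.

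Single pairs give the values. Copg2, a subunit of the COPI coat, was listed at 6073, 4455, 7748 and 4626 FPKM in control and 2951, 2605, 2814 and 2512 FPKM in ASKO mice (-1.04 ± 0.20, adjusted p = 0.437, limma). Mest, the imprinted gene that overlaps it, was at 208, 129, 180 and 160 FPKM against 119, 135, 89.6 and 130 FPKM (-0.51 ± 0.24). The antisense RNA Gm14703 was at 525 to 821 FPKM against 234 to 315 FPKM (-1.18 ± 0.21), and its partner Syp (synaptophysin) at 14.6 to 45.9 FPKM against 9.27 to 12 FPKM (-1.02 ± 0.38). In 80 pairs of a lower gene and a tested partner, 60 partners were lower as well (median -0.37), beside 48.3% of all tested genes. In 8 of these pairs the partner was itself separated downward, and such pairs count once from each side. In 21 pairs of a higher gene 13 partners were higher (median 0.21), beside 51.7% of all tested genes.

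**Figure D5:**
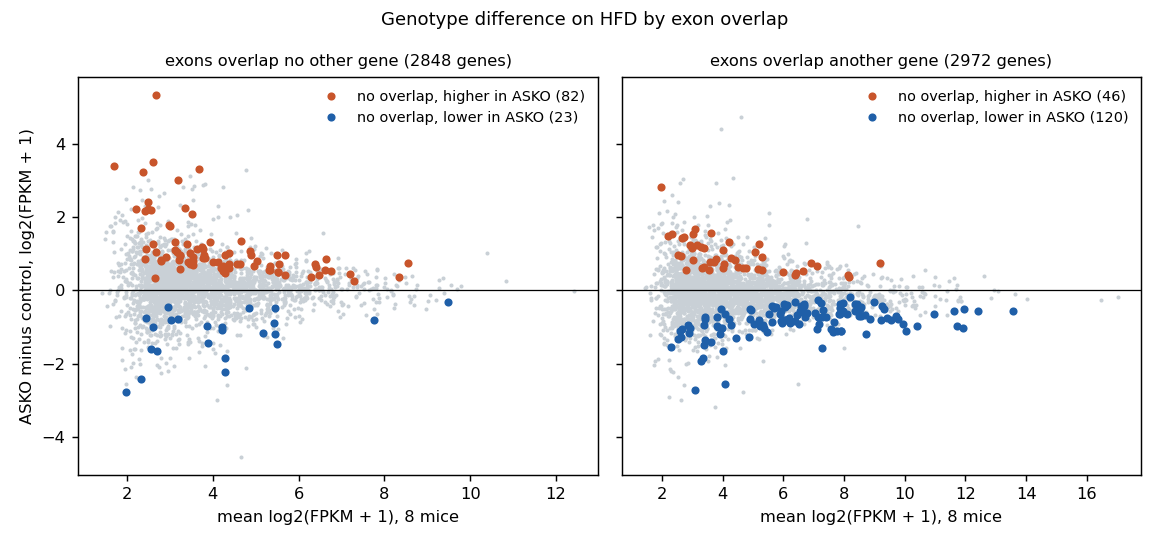
Difference between ASKO and control mice against the mean log2(FPKM + 1) of the 8 mice, for genes whose exons overlap no other gene (left, 2848 genes) and for genes whose exons overlap another (right, 2972 genes). Coloured points are genes whose groups did not overlap, with their counts in the legend. Blue points, lower in ASKO mice, number 23 on the left and 120 on the right, and orange points 82 and 46.

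The scale of the libraries bears on all directions. Rescaling each mouse to the FPKM sum without its 10 highest genes moved the median of all tested genes from 0.03 to 0.19, and the genes with an unadjusted p under 0.05 from 160 higher and 197 lower to 310 and 90. With upper-quartile scaling they were 206 and 139, and with quantile normalization 181 and 155. Relative to the median of all genes, the lysosomal list stood at 0.31 in the reported fit and 0.31 to 0.33 under these 3 scalings. The respiratory chain stood at 0.22 and 0.23 to 0.31, and progenitor and fibroblast markers at 0.48 and 0.41 to 0.49. Adipocyte markers stood at -0.26 and -0.26 to -0.18, and collagens at -0.48 and -0.48 to -0.45. Upper-quartile scaling and the rescaling divide each mouse by a constant, which shifts its genes almost alike on the log scale. These relative values could therefore hardly move under them. Only quantile normalization could change them, and it gave 0.33, 0.31, 0.41, -0.18 and -0.45 in that order.

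The genotype difference on HFD was set against that on chow, in 8 other mice, by the genotype-by-diet interaction over all 16. No gene passed (adjusted p at least 0.45, limma), and 422 of 5838 (7.23%) had an unadjusted p under 0.05. List medians on chow were 0.00 for lysosomal genes, 0.17 for the respiratory chain, 0.04 for progenitor and fibroblast markers, 0.08 for adipocyte markers and -0.25 for collagens, and differences between the diets in these medians were not tested. Ctsd differed by -0.03 on chow (interaction 0.78, unadjusted p = 0.0793, adjusted p = 0.692). Cebpb differed by 1.44 on chow (interaction -3.99, unadjusted p = 0.00879, adjusted p = 0.571), and Endog by 0.44 (interaction -2.01, unadjusted p = 0.000547, adjusted p = 0.571), so none of these passed. The mean of Cebpb on chow was 13.2 FPKM in control and 12.6 FPKM in ASKO mice. Its difference of 1.44 therefore held on the log scale only and was not one of mean FPKM.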

How the data were processed

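Gonadal fat of 16 mice was sequenced as directional mRNA libraries, 1 per mouse. Per the submitters' processing notes the authors used STAR, Cufflinks and Cuffdiff with mm10, and deposited 1 table of FPKM values with no read counts. The gene annotation release, the scaling between libraries and the use of strand in counting are not given in the sources used here. Of the gene IDs, 99.6% matched GENCODE M21, 22 names stored as numbers were restored, and 20 symbols stand on more than 1 row.

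Groups came from the genotype and diet labels. Genes that reached 5 FPKM in 4 or more of the 8 HFD mice were fitted on log2(FPKM + 1) with limma 3.58.1 (R 4.3.3), with an intensity trend, the 8 HFD mice alone and no covariate. A gene was called at a Benjamini-Hochberg adjusted p under 0.05 with a log2 difference above 0.5. The genotype-by-diet interaction used all 16 mice. Each mouse is a separate animal. Values of single genes outside the fit were compared by a two-sided exact permutation test, whose smallest p with 4 mice against 4 is 0.0286. On simulated data for the 5838 genes, 0%, 45% and 75.8% of genes changed by 1, 2 and 3 on the log2 scale were called, with 0.2, 7.4 and 7.6 unchanged genes called per draw.

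Depth was estimated from the smallest steps of FPKM in 1475 single-transcript coding genes, of whose low values 54.4% to 68.5% lay within 0.2 of a whole fragment, so it is approximate. Near copies were found with BLAST 2.17.0, and tables and figures made with Python 3.11.15, pandas 2.3.3, numpy 2.4.6 and matplotlib 3.10.9. Promoter sequences are from RefSeq (GRCm38.p6).

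Genes were named by rule: the called gene, the 15 highest and 15 lowest differences among genes whose groups did not overlap, the 2 highest and 2 lowest statistics of each list, the adipocyte markers and Mboat7. The gene lists and members were chosen with earlier results of these data known. The alternatives were other filters, pseudocounts, scalings, array weights, robust estimation, no trend, all 16 mice, genes without exon overlap, a replicate block, and leaving out each mouse.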

Additional observations from a re-analysis of the deposited data

Results flagged for a closer look

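In each group of 4 HFD mice, the gap between an extreme mouse and its nearest neighbour was divided by the range of the group, and a value above Dixon's critical value for 4 samples was taken as apart. Chance flags about 1 in 20 groups, and here 33 of 304 (10.9%) stood out.

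Of the library measures, the estimated number of fragments in control mice had a gap of 0.881, set by mouse 0 at 407000. The correlation with the other mice had a gap of 0.889 in the control group, also set by mouse 0, and the share of the 10 highest genes had a gap of 0.968 in the ASKO group, set by mouse 3 at 54.2%.

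Among lysosomal and chaperone genes, the gap in control mice was 0.905 for Ctsd, with mouse 2 lowest at 330 FPKM, and 0.846 for Atp6v1g1, with mouse 3 lowest at 19.1 FPKM. Hspa5 had a gap of 0.84 in control mice (mouse 0 lowest) and 0.934 in ASKO mice (mouse 1 highest, 219 FPKM).

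Other control gaps were 0.95 for Tpm4, with mouse 0 lowest, 0.949 for Kctd17, with mouse 2 highest, and 0.886 for Fam107b, with mouse 1 at 0. Gaps of 1.0 came from 3 control mice at 0 and 1 above 0 for Gm6180, Gm8325 and Ndufs7. In ASKO mice Snrnp25 had a gap of 1.0 for the same reason, with mouse 1 at 4.24 FPKM.

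The other ASKO gaps were 0.953 for Gpihbp1 (mouse 0 at 0), 0.899 for Cox5b (mouse 2 lowest), 0.898 for Ighm (mouse 1 lowest), 0.883 for Gm11361 (mouse 2 at 0), 0.867 for Eif4a2 (mouse 2 highest), 0.841 for Prpf31 (mouse 2 lowest), 0.84 for Neurl2, 0.837 for Nr1d1 (mouse 0 lowest), 0.833 for Rps27a-ps2 (mouse 0 highest) and 0.833 for Scd1 (mouse 0 highest).

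Means over lists stood apart in the ASKO group for B cell and plasma cell markers (0.866, mouse 1 lowest at 1.80), smooth muscle and pericyte markers (0.836), erythroid genes (0.866), skeletal muscle genes (0.891), proteasome subunits (0.844) and iron handling (0.895). In the control group they did so for smooth muscle and pericyte markers (0.889), translation factors (0.851) and the circadian clock (0.875).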

How the results depend on the processing

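The count of 1 called gene on HFD became 0 with all 16 mice in the fit, with array weights, without a filter, with a pseudocount of 0.1 and with the replicate block, and 2 with a filter of 1 FPKM and without the intensity trend. Leaving out each mouse in turn gave 0 to 1. Genes with groups that did not overlap went from 128 higher to 213 (filter of 1 FPKM), 225 (no filter) and 213 (rescaled without the 10 highest genes), and to 188 to 267 with a mouse left out. The 143 lower genes became 231 without a filter, 64 after that rescaling, and 193 to 306 with a mouse left out. Fewer mice separate more easily, and the other causes were not tested. The interaction count was 0, and 0 to 1 with a mouse left out, the 1 without ASKO chow mouse 2. The difference of Mboat7 was 0.01 with upper-quartile scaling, 0.03 after rescaling, and -0.39 to 0.28 with a mouse left out. Reversals among named genes were 0.07 (quantile) and 0.05 (rescaled) for Adipoq, 0.39 (quantile), 0.15 (rescaled) and 0.02 (upper quartile) for Fabp4, 0.04 for Col3a1 and 0.06 for Ddit3 (both rescaled). With a mouse left out, Col3a1 ran from -0.40 to 0.32, Cox5b from -0.71 to 0.64, Ddit3 from -0.35 to 0.04, Fabp4 from -0.28 to 0.17 and Tsen34 from -0.12 to 0.40. Of 49 list medians, 2 changed sign with quantile normalization, 3 with upper-quartile scaling, 8 after rescaling, none with the other pseudocount and 23 in at least 1 fit with a mouse left out.

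Mice with the same number did not pair: correlations of their deviations ran from -0.07 to 0.09, and 2 control mice of 4 matched their own number best. With the replicate block, 0 genes were called, and 136 higher and 194 lower genes had an unadjusted p under 0.05. Depth limits low values, also those somewhat above the 5 FPKM of the filter, and leaves Mboat7 unresolved. A single fragment on a transcript of 1000 bases was estimated at 2.46 to 3.35 FPKM in the HFD mice.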

Other observations

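Several groups outside the main pathways were counted in the same way on HFD. Antioxidant and metal-binding genes were higher in 16 of 23 (median 0.12), none of them with groups that did not overlap. Of 10 iron handling genes 5 were higher (median -0.02, and 0.15 after rescaling without the 10 highest genes), and transferrin (Trf) was at 112 to 177 FPKM in control and 161 to 246 FPKM in ASKO mice. Glycolysis enzymes were higher in 4 of 9 (median -0.07, and 0.09 after rescaling), amino acid transport and ATF4 targets in 3 of 7 (-0.02, and 0.15 after rescaling), cytosolic tRNA synthetases in 5 of 11 (-0.03, and 0.14 after rescaling), hypoxia and angiogenesis genes in 4 of 7 (0.08), and growth factor genes of the TGF-beta, BMP and Wnt families in 7 of 13 (0.02, and -0.06 with quantile normalization). Cell cycle genes were higher in 3 of 4 (0.57, and 0.07 without control mouse 2), although Ccna2, a cyclin of DNA replication whose exons overlap Exosc9, was lower without overlap at 65.7 to 97.0 FPKM against 55.6 to 65.0 FPKM. Long noncoding RNAs were higher in 2 of 6 (-0.27).

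Markers of other cell types were mostly below the filter. Smooth muscle and pericyte markers were higher in 2 of 4 tested (median -0.17, and 0.01 after rescaling), T cell markers in 2 of 3 (0.26, and -0.20 without control mouse 0) and mast cell markers in 2 of 3 (0.33, and 0.03 without control mouse 0). A single gene was tested for dendritic cells (-0.36), erythroid cells (0.84), skeletal muscle (-0.24) and nerve, where Pmp22, a myelin protein also made by fibroblasts, was at 54.8 to 104 FPKM in control and 106 to 151 FPKM in ASKO mice. No thermogenic gene passed the filter. With a mouse left out, the medians ran from -0.35 to 0.07 for smooth muscle and pericyte markers, from 0.00 to 1.94 for the erythroid gene, from -1.07 to 0.51 for the skeletal muscle gene and from -0.66 to 0.00 for long noncoding RNAs.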
